A study of Rattus norvegicus with 6 samples.

Results

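GABA-A receptor subunits were followed through 3 conditions of cultured rat hippocampal neurons. The members are the 7 genes Gabra2, Gabra3, Gabra4, Gabra5, Gabrb1, Gabrb2 and Gabrd, chosen by gene symbol from a table of 17066 genes, and all 7 were found there. A further 9 GABA-A subunit genes of the table are described beside them. The neurons were primary cultures from Sprague-Dawley embryos at embryonic day 18, infected with lentivirus on day 5 or 6 in vitro (DIV) and lysed at DIV14. Every condition carried EGFP: the control received EGFP alone (EGFP), the overexpression condition CCNY-WT-EGFP (CCNY-WT) and the knockdown condition CCNY-shRNA-EGFP (CCNY-shRNA), where CCNY is the protein Cyclin Y. Each condition was sequenced as 2 libraries, replicates 1 and 2. The virus was made from the FUGW vector, which is not restricted to a cell type, the knockdown used 1 shRNA construct, and the control is not described as carrying an shRNA. Whether the replicates came from separate cultures is not stated, so p-values measure the spread between these libraries, which may be technical.

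GABA-A receptors are chloride channels opened by GABA, the main inhibitory transmitter of the brain. Each is a ring of subunits, most often alpha and beta subunits together with a gamma or a delta subunit. GABA binds between alpha and beta, and the alpha subunit sets much of the pharmacology. In the hippocampus alpha2 is known from synapses and the axon initial segment of pyramidal cells, while alpha5 receptors and receptors of alpha4 with delta lie largely outside synapses and carry tonic inhibition.

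Levels are given as FPKM, a fragment count scaled to transcript length and library size. FPKM is meant for comparison between genes, but such a comparison rests on the annotation, which the sources used here do not give. The table holds no read counts, so the depth behind a value is unknown. The steps between low FPKM values placed the depth of the libraries between 0.818 and 1.33 times that of EGFP replicate 1. Ccny itself measured 43.1 and 42.3 with EGFP, 108 and 109 with CCNY-WT and 5.98 and 6.19 with CCNY-shRNA, the order the labels give. All 11 neuronal markers were expressed, with summed FPKM between 6520 and 6799. Astrocyte markers summed to between 892 and 1099, while 9 microglial markers summed to at most 1.47, with Aif1 and Cx3cr1 at 0, and markers of the oligodendrocyte lineage to between 47.5 and 57.7, with Sox10 at 0. Vascular and meningeal markers summed to between 63.9 and 75.7, with the endothelial marker Cldn5 at 0.

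The 7 subunit transcripts spanned a wide range of levels and kept the same order in every condition. Gabra2, which encodes alpha2, was the highest, with FPKM values of 302 and 303 with EGFP, 282 and 272 with CCNY-WT and 292 and 285 with CCNY-shRNA. Gabra5, which encodes alpha5, followed with 236 and 263 with EGFP, 242 and 245 with CCNY-WT and 241 and 232 with CCNY-shRNA. For Gabra2 both EGFP libraries lay above all others, whereas for Gabra5 the EGFP libraries overlapped both other conditions. These 2 genes lay above 95% of the 10188 genes tested by mean level (96.6 and 95.9 as percentiles). Gabrb1, a beta subunit gene, had 79.0 and 75.4 with EGFP, 78.8 and 69.2 with CCNY-WT and 68.7 and 69.8 with CCNY-shRNA, where the CCNY-shRNA values lay below those of EGFP and overlapped those of CCNY-WT. Gabra4, the gene of the delta-partnering alpha4, had 44.0 and 45.4 with EGFP, 41.7 and 42.1 with CCNY-WT and 38.2 and 34.3 with CCNY-shRNA. For Gabra4 the EGFP libraries were the highest and the CCNY-shRNA libraries the lowest, with no overlap between any of the conditions. Gabrb2, whose product is a common beta subunit of the adult brain, had 32.3 and 28.1 with EGFP, 27.6 and 27.2 with CCNY-WT and 26.4 and 25.8 with CCNY-shRNA, in the same order without overlap. Gabra3, an alpha subunit gene used widely in the developing forebrain, had 16.8 and 18.6 with EGFP, 20.0 and 18.1 with CCNY-WT and 11.5 and 15.5 with CCNY-shRNA. The CCNY-shRNA replicates of Gabra3 lay farther apart than the replicates of the other conditions, yet below all of them. Gabrd, which encodes delta, was the lowest, with 7.24 and 8.07 with EGFP, 6.58 and 5.40 with CCNY-WT and 4.23 and 5.19 with CCNY-shRNA. Its 3 conditions did not overlap either, in the order EGFP, CCNY-WT, CCNY-shRNA. The share of all tested genes without overlap between the 3 conditions was not counted. Shares for pairs of conditions are given with each comparison.

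**Figure D1:**
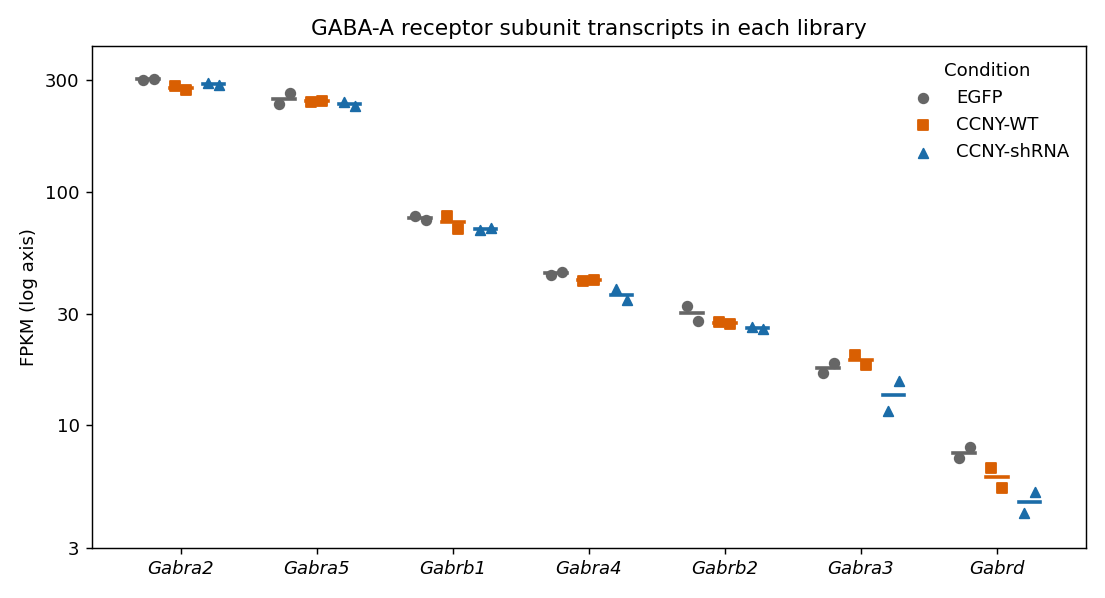
FPKM of the 7 subunit genes in each library, on a log axis; points are libraries (2 per condition) and bars are condition means. The order from Gabra2 to Gabrd was the same in EGFP, CCNY-WT and CCNY-shRNA. Both CCNY-shRNA libraries lay below all others for Gabra3, Gabra4, Gabrb2 and Gabrd. The lowest library of Gabra5 and of Gabrb1 was also from CCNY-shRNA. Of all tested genes, 24.5% had both CCNY-shRNA libraries below both EGFP libraries, and 21.9% had them below both CCNY-WT libraries. The share below all other libraries was not counted.

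The sequences upstream of Gabrd and Gabra4 are shown because these were the 2 members with the smallest p-values in the comparison of CCNY-shRNA with EGFP and their products form receptors together. They are the 250 bases before the annotated start in RefSeq, build GRCr8, written 5′ to 3′ on the gene's strand, chr5:171252710-171252959 on the minus strand for Gabrd and chr14:36944497-36944746 on the plus strand for Gabra4. Capitals mark the GC box GGGCGG, the binding motif of Sp1, and the Egr motif GCGNGGGCG, both searched on both strands. An Egr match that a G follows would also hold a GC box, and neither match here is followed by one.
Gabrd: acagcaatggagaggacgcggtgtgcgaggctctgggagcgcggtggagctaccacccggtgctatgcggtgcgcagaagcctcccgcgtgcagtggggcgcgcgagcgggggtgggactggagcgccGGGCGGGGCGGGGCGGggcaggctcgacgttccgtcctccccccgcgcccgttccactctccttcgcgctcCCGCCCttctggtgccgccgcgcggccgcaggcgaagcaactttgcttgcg
Gabra4: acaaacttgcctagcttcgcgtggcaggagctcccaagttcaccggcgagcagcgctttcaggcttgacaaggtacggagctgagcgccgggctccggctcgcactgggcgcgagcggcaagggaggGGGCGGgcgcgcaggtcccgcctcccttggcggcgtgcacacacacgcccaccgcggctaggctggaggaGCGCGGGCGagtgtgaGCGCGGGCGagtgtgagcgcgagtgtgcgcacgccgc

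Gabrd had 4 GC boxes, of which 3 overlap in its first run of capitals, and Gabra4 had 1, while 40.3% of 18999 protein-coding promoters of the same length hold at least 1. Gabra4 had 2 matches to the Egr motif, which 5.76% of promoters hold, and the other members with a sequence had 0. Promoter sequences were found for 6 members, all but Gabra2. The GC content was 76.4% for Gabra5, 74% for Gabrd and 71.6% for Gabra4, and 49.2% for Gabrb1, 43.2% for Gabrb2 and 40.4% for Gabra3, around a median of 54.8% over all promoters. The members with a GC-rich promoter included both the 2nd highest (Gabra5) and the lowest (Gabrd) by level. The full cAMP response element TGACGTCA was in 0 of the 6 and in 2.03% of all promoters. A match describes letters and not a bound site.

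Neighbours in the order of levels did not overlap in any condition: the lower library of each gene lay above the higher library of the next. The closest pair was Gabra2 and Gabra5, whose condition means differed by a ratio of 1.21 with EGFP, 1.14 with CCNY-WT and 1.22 with CCNY-shRNA. The widest step lay between Gabra5 and Gabrb1, with a ratio of 3.23 with EGFP, 3.29 with CCNY-WT and 3.42 with CCNY-shRNA. In EGFP the mean FPKM was 302 ± 0.884 (SD, n = 2) for Gabra2 and 7.66 ± 0.589 for Gabrd.

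Between members of 1 class, Gabra4 stood to Gabra2 at a ratio of FPKM of 0.146 and 0.150 with EGFP, 0.148 and 0.154 with CCNY-WT and 0.131 and 0.120 with CCNY-shRNA. The ratio of Gabra3 to Gabra2 was 0.0556 and 0.0613 with EGFP, 0.0710 and 0.0665 with CCNY-WT and 0.0395 and 0.0544 with CCNY-shRNA. Both ratios were lowest in the CCNY-shRNA libraries, without overlap with the other conditions. Gabrb1 exceeded Gabrb2 in every library, by a ratio between 2.45 and 2.86. The ratio of Gabrd to Gabra4 was 0.164 and 0.178 with EGFP, 0.158 and 0.128 with CCNY-WT and 0.111 and 0.151 with CCNY-shRNA, where the CCNY-shRNA values overlapped those of CCNY-WT and lay below those of EGFP. No test was made of these ratios.

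A first comparison asked how the subunit transcripts differed when CCNY was knocked down. All 7 fitted differences of CCNY-shRNA from EGFP were below 0, against 49.8% of all tested genes, but none of the 7 passed the test over all genes. The test was limma on log2 FPKM floored to 1, adjusted by Benjamini-Hochberg over 10188 genes, of which it called 0.746% at an adjusted p of 0.05 (17 higher, or 0.167%, and 59 lower, or 0.579%). At an unadjusted p under 0.05 stood 4 of the 7 members, Gabrd, Gabra4, Gabra3 and Gabrb2, all lower, against 18.6% of all tested genes in either direction and 9.36% lower. In 6 of the 7 both CCNY-shRNA libraries lay below both EGFP libraries, against 24.5% of all tested genes, and Gabra5 was the exception. The reverse, both CCNY-shRNA libraries above both, was seen for 0 of the 7 and for 23.9% of all tested genes. The median log2 difference of the 7 was -0.21, against 0 over all tested genes.

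The delta gene and that of its alpha4 partner, whose upstream sequences are given above, had the smallest p-values of the 7. For Gabrd the log2 difference was -0.71 (standard error 0.171, 95% interval -1.10 to -0.31, limma adjusted p = 0.0952), or 0.613 times the EGFP level. For Gabra4 it was -0.31 (standard error 0.0711, interval -0.47 to -0.14, limma adjusted p = 0.0902). Gabra3 differed by -0.40 with a wider interval of -0.74 to -0.06, and without CCNY-shRNA replicate 1 this value was -0.19 and without replicate 2 -0.61. With any library left out, Gabrd ranged from -0.85 to -0.56 and Gabra4 from -0.38 to -0.23. The differences of Gabrb2 (-0.21, interval -0.40 to -0.01) and Gabrb1 (-0.16, interval -0.32 to 0.01) were smaller, and that of Gabrb2 was -0.11 without EGFP replicate 1 and -0.31 without EGFP replicate 2. Gabra2 and Gabra5, the 2 most abundant members, differed least, by -0.07 each, with intervals of -0.19 to 0.05 and -0.22 to 0.08. At a cutoff of 0.33, the study's cutoff for the knockdown but applied here to differences of mean log2 FPKM, without its cuffdiff step and without a test, Gabra3 and Gabrd counted as lower, against 4.58% of all 17066 genes, and 0 members counted as higher, against 3.34%. Gabra3 fell short of this cutoff without CCNY-shRNA replicate 1 (-0.19) and without EGFP replicate 2 (-0.326).

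**Figure D2:**
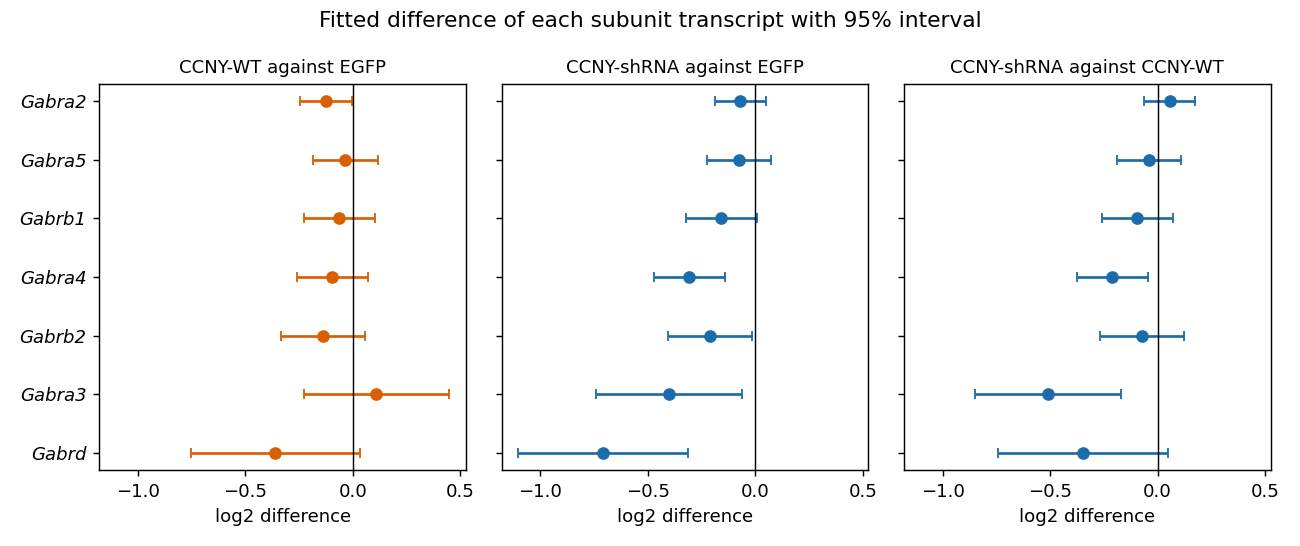
Fitted log2 difference of each subunit gene in the 3 comparisons, with points for limma's estimate and bars for its 95% interval. In CCNY-shRNA against EGFP all 7 points lie below 0 and the intervals of Gabrd, Gabra3, Gabra4 and Gabrb2 do not reach it, although 0 of the 7 passed the adjusted threshold.

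A second comparison asked the same of CCNY overexpression, with the same EGFP libraries as control. Of the 7 members 0 passed limma's adjusted threshold, and over all genes it called 0.00982%, which is Ccny alone. Gabra2 was the only member at an unadjusted p under 0.05, where 6.83% of all genes stood (3% lower), with a log2 difference of -0.13 (interval -0.25 to -0.01, limma adjusted p = 0.729). Gabrd differed by -0.36 (standard error 0.171, interval -0.76 to 0.04, limma adjusted p = 0.757), the widest difference of the 7 in this comparison. Leaving out a library moved this value from -0.50 to -0.22, and it was -0.28 without EGFP replicate 2 and -0.22 without CCNY-WT replicate 2. With all libraries, Gabrd was also the only member past a cutoff of 0.3 in mean log2 FPKM, set and applied in the same way for overexpression, against 2.31% of all genes in that direction, but not without either of these 2 libraries, and 0 members were higher by it, against 2.8%. Fitted values were below 0 for 6 of the 7, against 48.6% of all tested genes, and Gabra3 was the exception, at 0.11 with an interval of -0.23 to 0.45. Both CCNY-WT libraries lay below both EGFP libraries for 4 members, Gabra2, Gabra4, Gabrb2 and Gabrd, against 19.2% of all tested genes, and above both for 0 members, against 20.3%. The median log2 difference of the 7 was -0.10. Since both comparisons use the same 2 EGFP libraries, a like sign in both is not independent.

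The direct comparison of CCNY-shRNA with CCNY-WT does not involve the control. Again 0 of the 7 members passed limma's adjusted threshold, which 0.216% of all genes passed (0.196% lower and 0.0196% higher), while 2 members, Gabra3 and Gabra4, both lower, had an unadjusted p under 0.05, against 12.2% of all genes in either direction and 7.12% lower. Fitted values were below 0 for 6 of the 7, against 49.5% of all tested genes. Gabra3 was lower in CCNY-shRNA by -0.51 on the log2 scale (standard error 0.146, interval -0.85 to -0.17, limma adjusted p = 0.260), a value that ran from -0.72 to -0.30 with a library left out. Gabra4 differed by -0.21 (interval -0.38 to -0.05, limma adjusted p = 0.318) and Gabrd by -0.35 (interval -0.74 to 0.05, limma adjusted p = 0.471). With a library left out these ran from -0.29 to -0.13 for Gabra4, set by the CCNY-shRNA replicates, and from -0.49 to -0.20 for Gabrd, by those of both conditions. Gabra2 alone was higher in CCNY-shRNA, by 0.06 with an interval of -0.06 to 0.18, and its libraries did not overlap, as was seen in that direction for 20.3% of all tested genes. In 5 of the 7 both CCNY-shRNA libraries lay below both CCNY-WT libraries, against 21.9% of all tested genes.

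Shares within a library do not depend on the scaling between libraries, so the composition of the 7 transcripts was also described. Gabra2 made up 42.1% and 40.8% of their summed FPKM with EGFP, 40.4% and 40.1% with CCNY-WT and 42.8% and 42.6% with CCNY-shRNA. Gabrd made up 1.01% and 1.09% with EGFP, 0.941% and 0.795% with CCNY-WT and 0.620% and 0.777% with CCNY-shRNA. Gabra4 made up 6.14% and 6.13% with EGFP, 5.96% and 6.19% with CCNY-WT and 5.60% and 5.14% with CCNY-shRNA. In CCNY-shRNA the shares of Gabrd, Gabra4 and Gabra3 lay below both of their EGFP values, and the share of Gabra2 lay above both. Those of Gabra5, Gabrb1 and Gabrb2 overlapped their EGFP values. The shares of a library add up to a fixed total, so they are not independent. For Gabra3 the shares were 1.69% and 2.32% with CCNY-shRNA against 2.34% and 2.50% with EGFP. With 2 libraries against 2 an exact permutation test cannot reach 0.05, and no test was made of the shares. The summed FPKM of the 7 was 717 and 742 with EGFP, 699 and 679 with CCNY-WT and 682 and 668 with CCNY-shRNA.

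**Figure D3:**
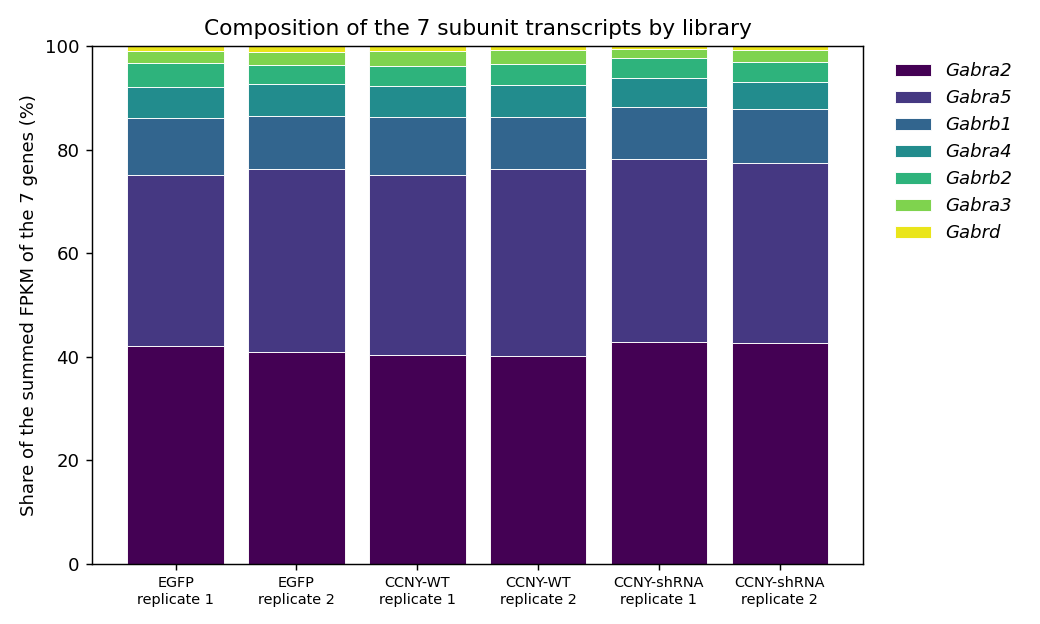
Share of each of the 7 genes in their summed FPKM, in percent, with 1 stacked bar per library. Gabra2 and Gabra5 make up most of every bar, and the share of Gabrd at the top is 1.01% and 1.09% in EGFP against 0.620% and 0.777% in CCNY-shRNA.

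The other subunit genes gave the setting for these values. Of the 9, 3 were expressed above the filter (2 or more libraries reaching an FPKM of 1), the gamma subunit genes Gabrg1 and Gabrg3 and the theta subunit gene Gabrq. None of these 3 passed limma's adjusted threshold in any of the 3 comparisons, and 0 had an unadjusted p under 0.05. In CCNY-shRNA against EGFP all 3 fitted values were below 0, against 49.8% of all tested genes, from -0.43 for Gabrg3 to -0.04 for Gabrg1. Gabrg1 had 16.8 and 16.1 with EGFP and 14.7 and 17.3 with CCNY-shRNA, and Gabrg3 had 5.32 and 6.46 against 4.38 and 4.31. Gabrq lay near the floor, between 0.714 and 2.61. The cerebellar subunit gene Gabra6 was at most 0.143, Gabre and the rho subunit genes Gabrr1, Gabrr2 and Gabrr3 were at most 0.641, and Gabrp was listed at 0 throughout.

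Genes that act with the receptor were described by 5 further lists of 55 genes, of which 51 could be tested. In CCNY-shRNA against EGFP, 2 of the 51 fell past limma's adjusted threshold and 0 rose, that is 3.92% of them against 0.579% of all genes called lower. An unadjusted p under 0.05 was found for 14 of the 51, against 18.6% of all tested genes. The 2 past the adjusted threshold were Gad2 and Hap1. Gad2 encodes a GABA-synthesising glutamate decarboxylase, and its FPKM was 170.4 and 173 with EGFP, 176 and 181 with CCNY-WT and 129 and 129 with CCNY-shRNA. Its log2 difference in CCNY-shRNA was -0.41 (standard error 0.0494, limma adjusted p = 0.0226). Hap1, whose product helps GABA-A receptors recycle to the cell surface, had 55.8 and 57.0 with EGFP, 53.1 and 61.4 with CCNY-WT and 38.1 and 40.2 with CCNY-shRNA, a difference of -0.53 (standard error 0.0795, limma adjusted p = 0.0425). Directly against CCNY-WT, Gad2 (-0.46, limma adjusted p = 0.0165) was also lower in CCNY-shRNA and Hap1 missed the threshold (-0.54, limma adjusted p = 0.0556). Each of these calls was lost when any of the 4 libraries of its comparison was left out. The fitted values against EGFP then stayed between -0.42 and -0.40 for Gad2 and between -0.57 and -0.49 for Hap1.

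By list, all 6 tested genes of GABA synthesis, transport and breakdown had fitted values below 0 in CCNY-shRNA, against 49.8% of all tested genes, with a median of -0.16. Of these 6, 3 had an unadjusted p under 0.05 and 1 passed the test, against 18.6% and 0.746% of all tested genes. After Gad2, the smallest p-value of the list was that of Slc6a11, which stood at -0.26 (limma adjusted p = 0.121). The CCNY-shRNA counts of the lists that follow stand against the same shares. Gad1, the other decarboxylase gene, differed by -0.03 with FPKM values of 189 and 188 with EGFP and 183 and 187 with CCNY-shRNA, a difference from Gad2 that was not tested. The scaffold, assembly and trafficking list had a median of 0.02 over 29 tested genes, of which 9 had an unadjusted p under 0.05 and 1 passed. Gephyrin (Gphn), the postsynaptic scaffold of the receptor, differed by 0.00, and Gabarapl1, a relative of the receptor-associated protein GABARAP, by 0.28 (limma adjusted p = 0.0829). None of the 4 GABA-B receptor genes tested passed limma's threshold, and 1 had an unadjusted p under 0.05. Gabbr2 differed by -0.26 (limma adjusted p = 0.0768) and Gabbr1 by -0.08. Among 9 genes of chloride transport, which sets the direction of the GABA current, 0 passed limma's threshold and 0 had an unadjusted p under 0.05, with a median of -0.09. Stk39, a kinase gene of that list, stood at -0.19 (limma adjusted p = 0.274) and Slc12a2 at -0.18 (limma adjusted p = 0.343). The 3 glycine receptor genes tested had a median of -0.21 and 0 calls by limma, with 1 at an unadjusted p under 0.05, and Glrb stood at -0.21 (limma adjusted p = 0.102) and Glra2 at -0.14. In CCNY-WT against EGFP, 0 of the 51 genes passed and 3 had an unadjusted p under 0.05, against 6.83% of all tested genes.

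**Figure D4:**
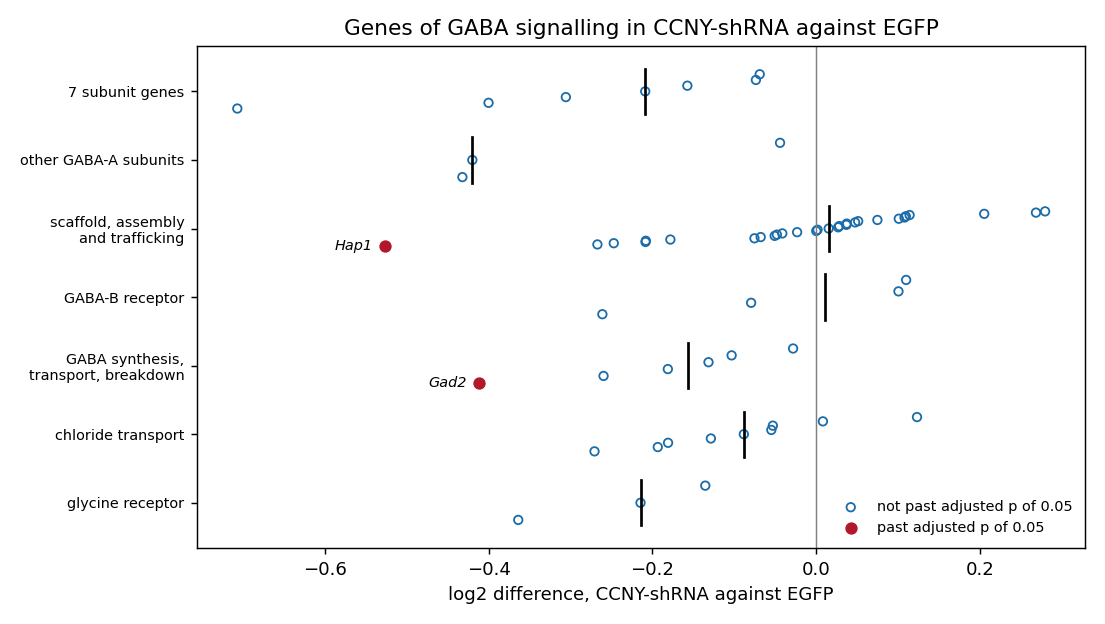
Log2 difference in CCNY-shRNA against EGFP for each tested gene of the 7 members and 6 further lists; open points missed limma's adjusted threshold, filled points passed it, and vertical bars are list medians. Gad2 and Hap1 are the filled points, and all 7 members lie below 0 without passing.

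Markers of several cell types had list medians below 0 in CCNY-shRNA against EGFP. The summed FPKM of 12 GABAergic interneuron markers was 2244 and 2355 with EGFP, 2262 and 2289 with CCNY-WT and 1944 and 2110 with CCNY-shRNA. Gad1, Gad2 and Slc32a1 are among them and also belong to the list of GABA synthesis, transport and breakdown. The highest marker, Sst, weighs most in the sum, with 1256 and 1311 with EGFP, 1228 and 1239 with CCNY-WT and 1043 and 1158 with CCNY-shRNA. Of the 11 markers tested, 9 had fitted values below 0 in CCNY-shRNA against EGFP, with a list median of -0.09. An unadjusted p under 0.05 was found for 3, and 1, Gad2, passed the test. Over all tested genes, 49.8% had fitted values below 0, 18.6% had an unadjusted p under 0.05 and 0.746% passed. The counts of the marker lists below stand against the same shares. The 9 excitatory neuron markers summed to 1541 and 1593 with EGFP, 1508 and 1502 with CCNY-WT and 1522 and 1512 with CCNY-shRNA, but this sum does not show how single markers differed. Of the 8 tested, 5 had fitted values below 0 and 3 above, from -0.27 to 0.40 with a median of -0.17, and 4 had an unadjusted p under 0.05 while 0 passed limma's adjusted threshold. The oligodendrocyte lineage sums were also lowest in CCNY-shRNA, at 49.5 and 47.5 against 52.9 to 57.7 in the other libraries, with a list median of -0.16 over 6 tested genes. The astrocyte list had a median of -0.13 over 9, of which 2 had an unadjusted p under 0.05 and 0 passed by limma. Its CCNY-shRNA sums, 892 and 1099, lay on both sides of 978 and 1041 with EGFP and 1081 and 1056 with CCNY-WT. The 11 neuronal markers had a median of -0.03, with 7 fitted values below 0 and 4 above. Of these, 1 had an unadjusted p under 0.05 and 0 passed. The part of these markers in the subunit values was not tested, and in bulk cultures fewer cells of a type and less RNA per cell cannot be told apart.

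Several of the subunit genes lie side by side in the genome. In the RefSeq annotation of the rat assembly GRCr8, used for gene order only since the files were made on rn4, all 7 symbols were matched. Gabrb1 and Gabra4 are neighbours with 0 protein-coding genes between them, Gabra2 is separated from Gabra4 by 1 gene, and Gabrg1 lies next to Gabra2. Within this cluster the log2 differences in CCNY-shRNA against EGFP were -0.16 for Gabrb1, -0.31 for Gabra4, -0.07 for Gabra2 and -0.04 for Gabrg1. Gabra5 lies next to Gabrg3, with differences of -0.07 and -0.43 in that order, and Gabrb2 lies next to Gabra6. Levels of neighbours could lie far apart, with a mean FPKM in EGFP of 302 for Gabra2 and 16.4 for Gabrg1, and differences between neighbours in fitted value were not tested.

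Across the 6 libraries the members varied together only in part. Over the 21 pairs of members, Pearson's r of log2 FPKM ran from -0.159 for Gabra2 and Gabra3 to 0.829 for Gabrb1 and Gabrd, and Gabra4 and Gabrd had 0.757. The libraries of a pair share their condition and depth, so these values are a description. Among 8054 genes with a mean FPKM of at least 5, the patterns most like Gabra4 were those of Slc6a7 (r = 0.991) and Mef2d (0.990), and 94 genes had an r of 0.95 or more. For Gabrd they were Dpy19l3 and Tctn1 (both 0.990), with 55 genes at 0.95 or more, and for Gabra3 Id4 (0.995) and Fhod3 (0.991), with 31. For Gabra2 they were Tmem200a (0.992) and Dhcr7 (0.986), for Gabra5 Akap8l (0.988) and Slc6a8 (0.982), for Gabrb1 Phactr1 (0.988) and Apaf1 (0.977), and for Gabrb2 Cnot4 (0.987) and Mad1l1 (0.985). With 6 libraries and 8054 genes compared, between 9 and 94 genes reached an r of 0.95 with each member.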

How the data were processed

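RNA-seq was measured in 6 libraries, 2 per condition (EGFP, CCNY-WT, CCNY-shRNA), grouped by their titles. The authors mapped 150-bp paired-end reads to rn4 with TopHat 2 and deposited 1 FPKM value per gene and library, computed with Cufflinks. The submitters' processing notes name TopHat2 2.0, Bowtie2 2.1.0, SAMtools 0.1.19 and Cufflinks 2.2.1. The annotation, and any scaling between libraries, is not given in the sources used here. Cufflinks can split reads between related genes, and FPKM values carry no depth, so precision rests on the replicates. Here, FPKM was floored to 1 and log2-transformed, so differences near the floor are understated. The 10188 genes that reached an FPKM of 1 in 2 or more libraries were tested with limma 3.58.1 in R 4.3.3 (eBayes with a trend, all 6 libraries, two-sided), adjusted by Benjamini-Hochberg at 0.05. The model was tested on simulated data. Relative depth came from the commonest ratio of values among genes under an FPKM of 0.3. Python 3.11.15 was used for tables. The members and lists were chosen with earlier results of these data known. Some genes are not reported here, are left out of the counts of lists and were not replaced by others. Named are the other subunit genes, genes of the other lists past the threshold in any comparison or with the 2 smallest p-values in CCNY-shRNA, Ccny, and 2 genes most alike each member among those with a mean FPKM of at least 5. Gad1, Gphn and the cell type markers were named in addition, after their values were seen. Alternatives covered the offset, the filter, the scaling, the spread, a replicate block and each library left out. The calls of cuffdiff and the qRT-PCR data were not analysed here.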

Additional observations from a re-analysis of the deposited data

How the results depend on the processing

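None of the 7 subunit genes passed the adjusted threshold in any of the 3 comparisons under any of the 13 alternatives of each, so these counts stayed at 0. In CCNY-shRNA against EGFP the lowest adjusted p was 0.0831 for Gabra4 (range to 0.395) and 0.0843 for Gabrd (range to 0.405), and the fitted values stayed below 0 for all members except Gabra5, which ran from -0.152 to 0.0046 with a library left out and was highest without EGFP replicate 2. In CCNY-WT against EGFP, Gabra5 ran from -0.113 to 0.044, above 0 without EGFP replicate 2, and Gabrb1 from -0.157 to 0.0293, above 0 without CCNY-WT replicate 2. The number of all genes called moved more. In CCNY-shRNA against EGFP, 76 genes became 2 with no filter, 1 with no trend, 1 with the 4 libraries alone, 39 with the replicate block, and between 1 and 7 with a library left out. In CCNY-WT against EGFP, 1 gene became 3 with log2(FPKM + 1) and 3 with the filter on mean FPKM, and 0 or 1 with a library left out. In CCNY-shRNA against CCNY-WT, 22 genes became 2 with no filter, 1 with no trend, 1 with the 4 libraries alone, and between 1 and 8 with a library left out. The cause was not tested. The lone library of a condition was assumed to vary like the others. Against EGFP, Gad2 passed in 6 and Hap1 in 6 of 13 alternatives, at adjusted p from 0.0171 to 0.316 and 0.0340 to 0.337. Deviations of same-numbered libraries correlated at 0.0377 to 0.0538 over genes, and the block changed no call of a subunit gene. Whether same-numbered libraries share a culture is not stated and was not tested. With 2 libraries per condition, differences that are small beside the intervals given could not be told from 0. An interval that excludes 0 is not a call over all genes.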
